A study of Mus musculus with 6 samples.

Results

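Branched-chain amino acid breakdown was examined as 10 genes, taken by symbol from the 16138 genes of the authors' deposited table: Bcat1, Bcat2, Bckdha, Bckdhb, Dbt, Dld, Bckdk, Ppm1k, Ivd and Mccc1. All 10 were measured. The set was chosen by the deposited ratios of this same comparison, above all that of Bcat1, so those ratios are given here as a description and not as a test of the pathway. The cells were mouse macrophages grown from bone marrow for 7 days in 50 ng/ml macrophage colony-stimulating factor (M-CSF) and 20% fetal bovine serum. Control cells came from Morrbidfl/fl mice, whose Morrbid gene, a long non-coding RNA of myeloid cells, is flanked by loxP sites (3 samples). Knockout cells, called cKO, came from Morrbidfl/fl/Lyz2-Cre mice, in which Cre recombinase made from the myeloid Lyz2 locus removes the flanked sequence (3 samples). Both groups carried the flanked allele and only cKO carried Cre, so Morrbid loss, Cre itself and the altered Lyz2 locus cannot be told apart. Age, sex and the number of animals are not given in the labels, so the spread behind each p-value may be technical.

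Leucine, isoleucine and valine are broken down largely in mitochondria by a shared route. An aminotransferase first passes the amino group to form glutamate and a branched-chain keto acid, a step that is reversible and exists in a cytosolic form, BCAT1, and a mitochondrial form, BCAT2. The branched-chain keto acid dehydrogenase complex (BCKDH) then carries out the committed step, and a kinase and a phosphatase switch it off and on. After that the routes of the 3 amino acids part. In human macrophages, BCAT1 is the aminotransferase that has been linked to the metabolic changes of immune activation.

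Each gene had 1 log2 fold change of cKO over control, 1 p-value and 1 q-value per the authors' deposited table, and values per library were not analysed here. The level of each gene and the depth behind it are therefore unknown. As a measure of precision, a standard error was computed from each ratio and its p-value, on the assumption of a Wald-type test, and intervals of 95% are built on it. A q under 0.05 was reached by 278 genes, which is 1.72% of all genes, with 137 higher in cKO (0.849%) and 141 lower (0.874%). Across all genes the median log2 fold change was -0.01 and the median implied standard error 0.185. In bulk RNA, fewer cells of a type and less RNA per cell cannot be told apart.

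As Bcat1 passed the threshold and Bcat2, which catalyses the same reaction, did not, the stretches around their annotated starts are shown in full, from 250 bases before to 50 after. RefSeq lists 2 starts for each gene on the GRCm38.p6 build, whereas the authors' build was mm9, and both Bcat1 starts lie on the minus strand of chromosome 6, 27345 bases apart. The Bcat1 windows are chr6:145076108-145076407 (upstream start) and chr6:145048763-145049062 (downstream start). On the plus strand of chromosome 7, the Bcat2 windows are chr7:45569903-45570202 (upstream start) and chr7:45571029-45571328 (downstream start). Capitals mark every match, on either strand, to 5 short motifs: the E-box CACGTG bound by MYC and its partners, the CCAAT box, the GC box GGGCGG, the TATA box TATAAA and the amino acid response element TGATGNAA.
Bcat1 upstream start: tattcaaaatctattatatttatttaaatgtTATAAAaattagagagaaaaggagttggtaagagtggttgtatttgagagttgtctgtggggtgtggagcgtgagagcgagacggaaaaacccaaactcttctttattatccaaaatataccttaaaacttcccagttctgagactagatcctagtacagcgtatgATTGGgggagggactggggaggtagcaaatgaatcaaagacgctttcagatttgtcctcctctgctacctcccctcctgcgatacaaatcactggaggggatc
Bcat1 downstream start: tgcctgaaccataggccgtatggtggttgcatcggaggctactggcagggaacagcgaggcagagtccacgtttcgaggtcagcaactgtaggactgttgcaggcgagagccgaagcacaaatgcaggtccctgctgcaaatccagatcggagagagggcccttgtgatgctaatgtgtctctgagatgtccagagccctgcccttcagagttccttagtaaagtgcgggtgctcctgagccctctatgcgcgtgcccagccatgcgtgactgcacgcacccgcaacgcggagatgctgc
Bcat2 upstream start: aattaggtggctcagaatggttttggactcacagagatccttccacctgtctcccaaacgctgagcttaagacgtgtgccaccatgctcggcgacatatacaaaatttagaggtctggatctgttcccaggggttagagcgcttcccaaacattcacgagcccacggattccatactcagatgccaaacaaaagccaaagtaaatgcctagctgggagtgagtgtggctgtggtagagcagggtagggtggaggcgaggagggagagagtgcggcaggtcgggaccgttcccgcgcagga
Bcat2 downstream start: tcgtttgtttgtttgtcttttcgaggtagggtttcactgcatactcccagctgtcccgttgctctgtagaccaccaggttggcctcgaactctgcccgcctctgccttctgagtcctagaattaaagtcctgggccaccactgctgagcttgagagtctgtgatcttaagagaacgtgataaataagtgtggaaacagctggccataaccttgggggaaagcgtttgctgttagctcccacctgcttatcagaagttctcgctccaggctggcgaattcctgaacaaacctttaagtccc

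The upstream Bcat1 window held 1 match to the TATA box, near the end far from the start, and 1 to the CCAAT box. The downstream Bcat1 window and both Bcat2 windows held no match to any of the 5 motifs. The Bcat1 windows differed in base composition: G and C made up 41% of the upstream window, with 6 CpG sites, and 58.7% of the downstream window, with 16. For Bcat2 the shares were 54% and 50.3%. Over all 32851 windows of this length the median share of G and C was 52.7%, and 12.1% of windows had less than the upstream Bcat1 window. Windows for 9 of the 10 genes were found, 12 in all, and none held the E-box, which 7.15% of all windows have, or the amino acid response element, which 3.97% have. A CCAAT box, present in 37.4% of all windows, was found in windows of Bcat1, Bckdhb, Dld, Bckdk, Ppm1k, Ivd and Mccc1. GC boxes, present in 35.7% of all windows, were found in windows of Bckdhb, Ppm1k and Mccc1, and a TATA box, present in 13.6%, in those of Bcat1 and Bckdk. These matches describe letters in the reference, counted anywhere in a window, and their distance from the start was not considered. The authors' deposited table has 1 ratio for Bcat1 over 3 listed transcript models, so the use of its 2 starts cannot be told apart.

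Bcat1 (Gene ID 12035), the cytosolic aminotransferase, fell in cKO, at a log2 fold change of -3.77 per the authors' deposited table. Its level in cKO was thus 0.0734 times the control level, or 13.6 times higher in control. The implied standard error was 0.875 and the interval ran from -5.48 to -2.05 on the log2 scale, so the size of the decrease is poorly fixed. Bcat1 was chosen for this ratio, and the interval takes no account of that choice. The deposited q was 0.00241, and by p the gene stood in place 112 among all genes of the authors' deposited table. Among the 141 genes with lower expression and a q under 0.05, only 2 had a lower ratio than Bcat1, while 19 further genes with a lower ratio did not pass.

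The precision of Bcat1 set it apart from most genes that passed. Only 1 of the 278 passing genes had a larger implied standard error, and the median of the passing genes was 0.161. Of all genes, 75.2% were measured more precisely than Bcat1. Between standard errors of 0.75 and 1 there were 551 genes, of which 2 passed, Bcat1 being 1 of them. None of the 3731 genes (23.1%) above a standard error of 1 passed. At its own precision Bcat1 needed a change of 2.92 log2 units to pass, a 7.55-fold difference.

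**Figure D1:**
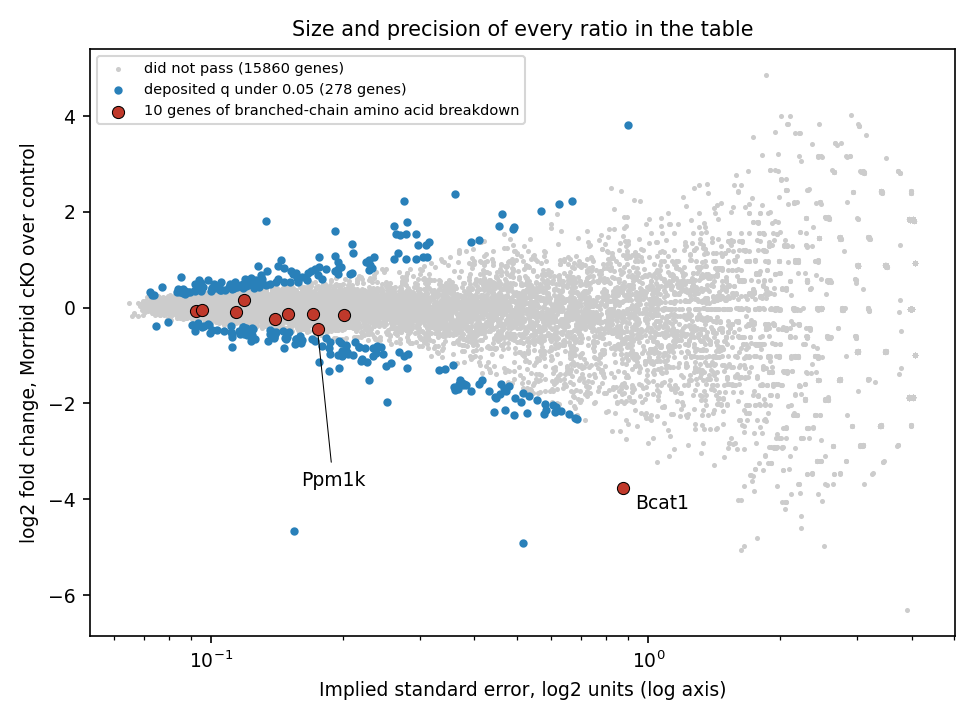
Log2 fold change of cKO over control (vertical axis) against the implied standard error in log2 units (horizontal log axis) for each gene in the table, with the 278 genes at a deposited q under 0.05 in blue and the 10 breakdown genes in red. Bcat1 sits at -3.77 with a standard error of 0.875, apart from the other 9 genes, whose standard errors lie between 0.0923 and 0.201.

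Bcat2 (Gene ID 12036), the mitochondrial aminotransferase that catalyses the same reaction, had a log2 fold change of 0.17 per the authors' deposited table (q = 0.879). Its implied standard error was 0.119 and its interval ran from -0.07 to 0.40. A change of 0.40 log2 units, or 1.32-fold, was needed for Bcat2 to pass. It was the only one of the 10 genes with a ratio above 0.

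The core of the dehydrogenase complex is built from 3 enzymes encoded by 4 of the genes, and none passed. Bckdha, the alpha subunit of the decarboxylase and the target of the kinase, had a log2 fold change of -0.24 per the authors' deposited table (q = 0.686), with an interval from -0.52 to 0.03. Bckdhb, the beta subunit of the decarboxylase, stood at -0.15 (q = 0.993) and was the least precise of the 4, with an implied standard error of 0.201, per the authors' deposited table. Dbt, the transacylase core that carries the lipoyl arm, stood at -0.14 (q = 0.993) per the authors' deposited table. Dld, the dehydrogenase that is shared with the pyruvate and oxoglutarate complexes, stood at -0.06 (q = 0.993) per the authors' deposited table, with a standard error of 0.0923. All 4 ratios were below 0, between -0.24 and -0.06. Their intervals all included 0, and 52.3% of all genes had a ratio below 0.

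Of the enzymes that set the activity of the complex, neither passed. Bckdk, the kinase that inactivates it, had a log2 fold change of -0.04 per the authors' deposited table (q = 0.993). The interval for Bckdk ran from -0.23 to 0.14, and a change of 0.32 log2 units was needed to pass. Ppm1k, the mitochondrial phosphatase that reactivates the complex, had a log2 fold change of -0.45 per the authors' deposited table (p = 0.0108, q = 0.252). Its level was 0.734 times that of control, with an interval from -0.79 to -0.10. Ppm1k had the lowest ratio of the 10 genes after Bcat1 and was the only other one whose interval did not include 0. Such an interval goes with an unadjusted p under 0.05, which 1426 of all 16138 genes had. To pass over all genes, Ppm1k needed 0.58 log2 units.

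The leucine branch begins with Ivd and Mccc1. Ivd, the dehydrogenase of isovaleryl-CoA, had a log2 fold change of -0.08 per the authors' deposited table (q = 0.993), with an interval from -0.31 to 0.14. Mccc1, the biotin-bearing subunit of methylcrotonyl-CoA carboxylase, stood at -0.14 per the authors' deposited table (q = 0.993), with an interval from -0.44 to 0.15. Neither passed.

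Set side by side, 1 of the 10 genes passed, beside 1.72% of all genes, and nothing is read from that share because the ratios chose the list. The 9 genes without Bcat1 had a median log2 fold change of -0.14, against -0.01 for all genes. Of the 9, 8 were below 0, beside 52.3% of all genes. Their ratios ran from 0.734 to 1.12 times the control level, and none of their intervals reached below -0.79 or above 0.40. Observed changes between 0.31 log2 units (Dld) and 0.67 (Bckdhb) were needed for them to pass. The lack of a call therefore does not exclude true changes within the intervals of these 9 genes. For some of them, such as Dld with an interval from -0.24 to 0.12, the interval stops short of the change needed.

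**Figure D2:**
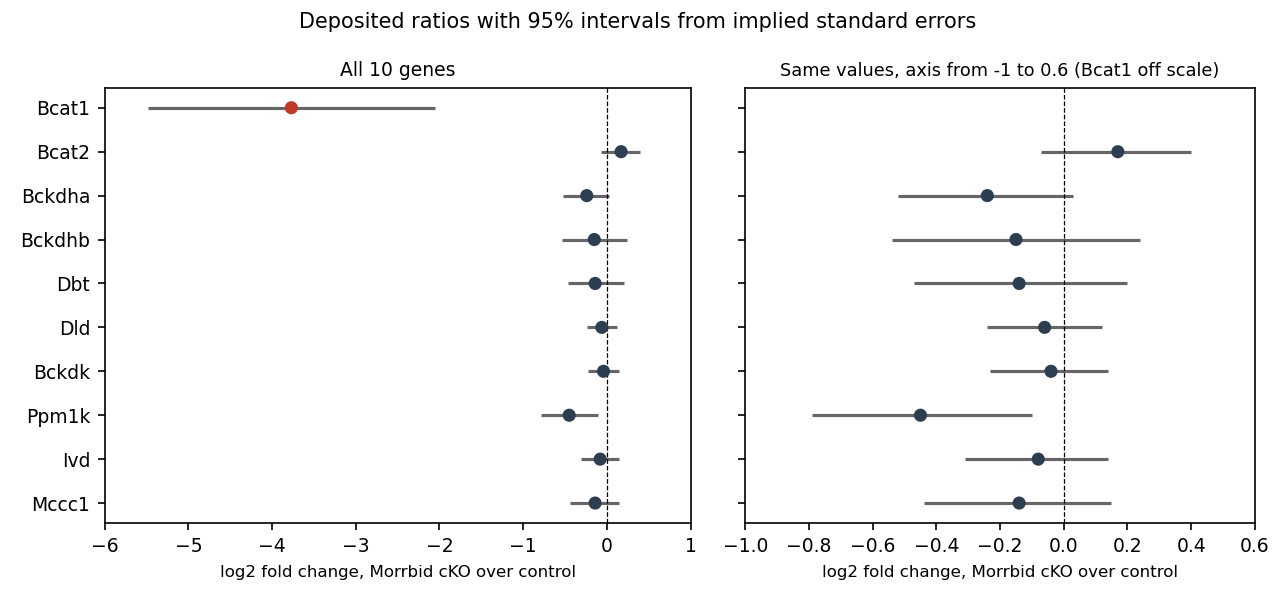
Log2 fold change of cKO over control (horizontal axis) for the 10 genes, as points with lines for the 95% intervals from implied standard errors; the right panel repeats the values on a narrower axis without Bcat1. Bcat1, in red, has an interval from -5.48 to -2.05, and the intervals of the other 9 lie between -0.79 and 0.40.

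The protein-coding neighbours of Bcat1 did not pass. The order of genes was taken from the GRCm38 annotation. The nearest 3 protein-coding genes on 1 side are Sox5, Etnk1 and C2cd5, and on the other side Lrmp, Casc1 and Etfrf1. Their log2 fold changes were 0.61 for Sox5, -0.04 for Etnk1 and 0.04 for C2cd5 per the authors' deposited table. On the other side Lrmp stood at -0.01, Casc1 at -0.27 and Etfrf1 at 0.04 per the authors' deposited table. The ratios of Sox5 and Casc1 were imprecise, with implied standard errors of 1.09 and 0.519, while those of the other 4 had standard errors from 0.0862 to 0.142.

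Further genes around the pathway were counted in 9 lists by role, and of 113 measured genes 1 rose, 0 fell and 112 did not pass. That is 0.885% against 1.72% of all genes. Their median log2 fold change was -0.02, and 68 of the 113 were below 0 (60.2%, beside 52.3% of all genes). For 8 of the 113 the implied standard error was over 1, where no gene passed. The lists were drawn up with earlier results of this table known.

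The gene that rose was Slc7a7, in the list of branched-chain amino acid transporters. Slc7a7 encodes the light chain y+LAT1, which exchanges dibasic for neutral amino acids, leucine among them. Its log2 fold change was 0.47, or 1.38-fold higher in cKO, with q = 0.0116 per the authors' deposited table and an interval from 0.23 to 0.70. Its partner chain Slc3a2, also the heavy chain of other leucine exchangers, stood at 0.13 (q = 0.819) per the authors' deposited table. Of the 9 transport genes 8 did not pass, Slc3a2 among them. Slc25a44, the mitochondrial carrier of branched-chain amino acids, stood at -0.02 (q = 0.994) and Slc7a5, the LAT1 light chain, at 0.35 (q = 0.993) per the authors' deposited table. Slc43a1, a facilitative carrier of large neutral amino acids, had a ratio of -3.20 close to that of Bcat1 per the authors' deposited table, but its q was 0.91 and its implied standard error 2.44.

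No gene of the branches below the dehydrogenase passed, beside 1.72% of all genes. Counts below 0 in these branches stand beside 52.3% of all genes with a ratio below 0. The 6 other genes of the leucine branch had a median log2 fold change of -0.14, with 5 below 0. Among them Auh, the methylglutaconyl-CoA hydratase, stood at -0.19 (q = 0.894) per the authors' deposited table. The 11 genes of the isoleucine and valine branch had a median of -0.07, with 10 below 0. That count includes Acadsb, Hsd17b10 and Hibadh, whose ratios from -0.00421 to -0.00052 were close to 0, per the authors' deposited table. It also includes Abat at -0.62, whose implied standard error was 2.3, per the authors' deposited table. The 2 genes with the smallest p in this list do not stand for the whole branch. They were Hadhb, a subunit of the mitochondrial trifunctional protein, at -0.19 (q = 0.487) and Acaa2, a thiolase, at -0.18 (q = 0.734) per the authors' deposited table. The 8 genes that dispose of propionyl-CoA had a median of 0.02, with 3 below 0. Pccb, a subunit of propionyl-CoA carboxylase, stood at -0.15 (q = 0.993) and Mcee, the methylmalonyl-CoA epimerase, at -0.14 (q = 0.993) per the authors' deposited table.

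Leucine also signals to the kinase mTORC1 through sensors and the Rag GTPases, and BCAT reactions feed glutamate. None of 31 leucine-sensing genes passed, beside 1.72% of all genes, a share at which a list of this length may well hold none. Their median log2 fold change was -0.03, within a range from -0.28 to 0.19. Lamtor2 stood at -0.21 (q = 0.588) and Lamtor4 at -0.16 (q = 0.702) per the authors' deposited table; both encode parts of the lysosomal Ragulator scaffold. None of 12 measured genes of glutamate handling and transamination passed, again beside 1.72% of all genes, with a median of -0.08. Asns, asparagine synthetase, stood at 0.42 (q = 0.826) and Oat, ornithine aminotransferase, at -0.17 (q = 0.827) per the authors' deposited table.

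The dehydrogenases of pyruvate, oxoglutarate and glycine cleavage share Dld or the lipoyl chemistry with BCKDH. None of their 21 genes passed, beside 1.72% of all genes, so little can be read from the lack of calls. Their log2 ratios were below 0 for 11 and above 0 for 10. Pdk4, a kinase that inactivates pyruvate dehydrogenase, had the lowest, -1.50 (p = 0.0304, q = 0.446) per the authors' deposited table, with an interval from -2.87 to -0.14. Pdp1, the opposing phosphatase, stood at 0.27 (q = 0.785) per the authors' deposited table. None of 5 biotin-dependent or biotin-handling genes passed, beside the same share of all genes. Among them Acaca, acetyl-CoA carboxylase, stood at 0.27 (q = 0.518) and Btd, biotinidase, at -0.16 (q = 0.989) per the authors' deposited table.

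Nor did any of 10 regulators reported for Bcat1 or for the pathway pass, beside 1.72% of all genes. At that share a list this short may well hold none. Ezh2, a histone methyltransferase reported to repress Bcat1 in mouse blood cells, stood at -0.25 (q = 0.886) per the authors' deposited table. Msi2, an RNA-binding protein reported to bind BCAT1 transcripts in human leukaemia, stood at -0.21 (q = 0.913) per the authors' deposited table. Myc, a transcription factor reported to raise BCAT1, stood at -0.13 (q = 0.993) per the authors' deposited table. The interval for Myc ran from -0.78 to 0.52. For 3 of the regulators, Klf15, Ppara and Ppargc1a, the implied standard error was between 2.75 and 3.97, a range in which no gene of the table passed, so the lack of a call says nothing about them.

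**Figure D3:**
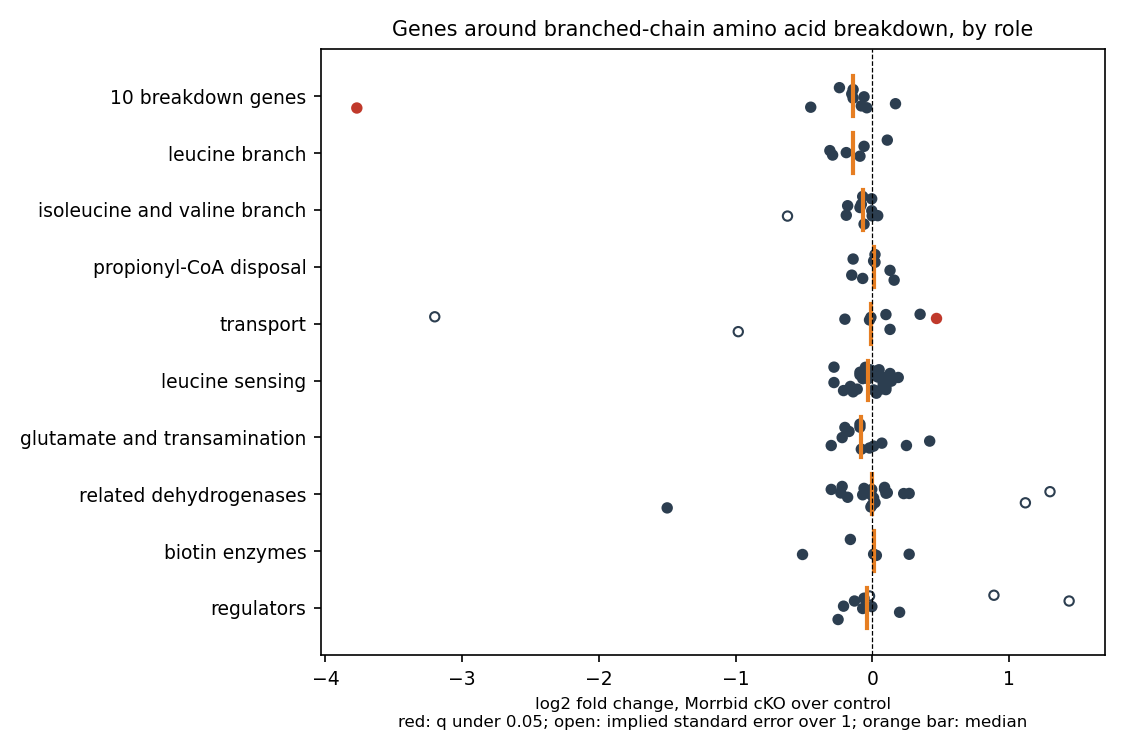
Log2 fold change of cKO over control (horizontal axis) for the 10 breakdown genes and the 9 lists around them (rows), 1 point per gene, red at a deposited q under 0.05, open where the implied standard error is over 1, with orange bars for the medians. Bcat1 at -3.77 and Slc7a7 at 0.47 are the red points, and the other filled points, apart from Pdk4, lie between -0.51 and 0.42.

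Markers of other cells that bone marrow cultures can hold had ratios mostly on the same side of 0 as Bcat1. All marker lists were drawn up with earlier results of these data known, so their counts are a description and not a test. All 18 listed markers of fibroblasts and stromal cells had ratios below 0, with a median log2 fold change of -1.69 and a range from -2.48 to -0.58. Of these, 2 passed, which is 11.1% beside 1.72% of all genes: Col5a1, a fibrillar collagen chain, at -1.70 (q = 0.000815), and the smooth muscle actin Acta2 at -2.06 (q = 0.0458), per the authors' deposited table. At an unadjusted p under 0.05 there were 16 of the 18 stromal markers, beside 1426 of all 16138 genes. Of the 12 markers of monocytes and progenitors 11 had ratios below 0, with a median of -0.48, and 2 passed (16.7%). The progenitor sialomucin Cd34 was lower at -1.97 (q = 1.4e-11), and F13a1, a coagulation factor chain of monocytes, at -1.52 (q = 4.51e-08), per the authors' deposited table. The ratio of Bcat1 was lower than that of every marker in these lists, though its interval, which ends at -2.05, takes in the ratios of the lowest stromal markers. Which cells of the cultures held the Bcat1 RNA was not analysed here, and the part of these cells in its lower ratio was not tested.

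Markers of the labelled cell type were measured as well. The 13 macrophage markers had a median log2 fold change of 0.03, from -0.85 to 0.44. Lyz2, whose locus carries Cre in cKO, was lower at -0.85 (q = 4.6e-06) and Adgre1, an adhesion receptor of mouse macrophages, was higher at 0.44 (q = 0.0104) per the authors' deposited table. The other 11 did not pass, so that 15.4% of these markers were called, beside 1.72% of all genes. That share includes Lyz2, the locus altered in cKO. Levels of these markers, and the deletion at the Morrbid transcript itself, were not analysed here.

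**Figure D4:**
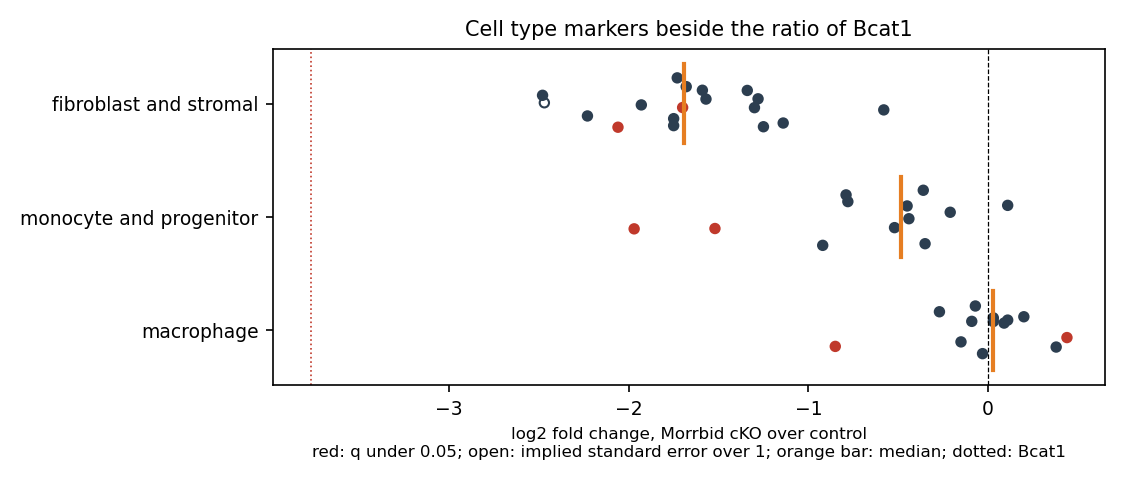
Log2 fold change of cKO over control (horizontal axis) for markers of 3 cell types (rows), 1 point per gene, red at a deposited q under 0.05, open where the implied standard error is over 1, with orange bars for the medians. The dotted line marks Bcat1 at -3.77, below all stromal markers, which lie between -2.48 and -0.58 with a median of -1.69.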

How the data were processed

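RNA from bone marrow-derived macrophages of 3 control and 3 Morrbid cKO samples was compared by the authors, and groups follow the genotype in the labels. Per the file headers, the deposited table gives 1 log2 ratio of Morrbid cKO over WT, 1 p-value and 1 q-value per gene; WT was taken as the control group. The authors used DESeq2 1.4.5, RSEM 1.3.1, Bowtie2 and the mm9 build, per the submitters' processing notes, with no role or order stated. The filter on low genes and the scaling are not given in the sources used here. Deposited q-values matched a Benjamini-Hochberg adjustment within a relative difference of 0.00587.

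The members and gene lists were chosen with earlier results of these data known. Genes were called at a deposited q under 0.05. Implied standard errors were the ratio divided by the normal statistic of its two-sided p-value. Named were the 10 members, in each list the passing genes and the 2 smallest p, the neighbours of Bcat1, and Lyz2. Slc25a44, Slc7a5, Slc43a1, Acadsb, Hsd17b10, Hibadh, Abat, Myc, Klf15, Ppara and Ppargc1a were named after their values were seen. Another pick of the naming rule is counted in its list but is not reported here. Aadat and Tat were listed but were not analysed here. Alternatives tried were a q of 0.01, a minimum absolute log2 fold change of 1, a Holm adjustment, mRNA genes only and an implied standard error of at most 1. A planned comparison of protein sequences was not run. Promoter windows are from RefSeq (GRCm38.p6). Software was SciPy 1.17.1, NumPy 2.4.6, matplotlib 3.10.9 and pandas 2.3.3, run in Python 3.11.15.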

Additional observations from a re-analysis of the deposited data

How the results depend on the processing

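The decrease of Bcat1 kept its call at a q under 0.01 and at a minimum absolute log2 fold change of 1. With a deposited q of 0.00241 and a log2 ratio of -3.77, Bcat1 met both of these in advance. It also kept its call over mRNA genes only and when genes above an implied standard error of 1 were left out. None of the genes left out for their standard error had passed, so that setting could not remove the call. With a Holm adjustment Bcat1 did not pass (adjusted p = 0.268, against 0.00185 to 0.00247 under the other settings), and 0 of the 10 genes were then called. Slc7a7 did not pass at a q under 0.01 or with the Holm adjustment, which left 0 of the other pathway genes. Over all genes the count fell from 278 to 165 at a q under 0.01, to 94 at the minimum fold change and to 67 with Holm, all stricter by construction. The median of the 9 other genes was -0.14, and their precision-weighted mean was -0.09. No paired analysis was possible because the deposited values are ratios of the genotypes, without values for single samples; for the same reason fits without each replicate, other scalings and filters on low counts were not run.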
